A study of Mus musculus with 11 samples.

Results

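Transcripts of 9 enzymes of the tricarboxylic acid (TCA) cycle, cytosolic Mdh1 counted among them, were followed in a mouse pancreatic alpha cell line. The line was examined after knockdown of either core subunit of the m6A writer complex. The genes were chosen by symbol, with earlier results of these data known: Cs, Idh2, Idh3a, Ogdh, Dlst, Suclg1, Fh1, Mdh1 and Mdh2. Each matched 1 row of the deposited table, so that all 9 members were found among 53947 gene rows, and all 9 passed the filter on low counts with 14133 genes in all. The cells were aTC1-6, an immortalised glucagon-secreting line cloned from an alpha cell tumour of mice in which the glucagon promoter drove a viral T antigen. The groups were 4 libraries labelled METTL3 KD, 4 labelled METTL14 KD and 3 labelled scramble control. Every library came from cells reverse transfected at 70% confluency and collected 72 h after knockdown, and what was transfected to deplete each target is not stated in the labels. Whether the libraries of a group came from separate cultures is not stated, so p-values speak only of variation among these libraries, part or all of which may be technical.

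The cycle runs in the mitochondrial matrix, where it oxidises the acetyl group of acetyl-CoA to carbon dioxide and passes the electrons to the respiratory chain as NADH and reduced flavin. Citrate synthase (Cs) joins acetyl-CoA to oxaloacetate, isocitrate and 2-oxoglutarate are then oxidised and decarboxylated, succinyl-CoA is split with formation of a nucleoside triphosphate, and fumarase and malate dehydrogenase restore oxaloacetate. In islet cells the cycle couples nutrient supply to ATP and thereby to hormone release. The writer complex of Mettl3 and Mettl14 places N6-methyladenosine on messenger RNA, and the modification was not measured in these libraries.

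Library totals ran from 19576632 to 22406527 counts, and levels are given as CPM, counts relative to each library's effective size from trimmed means of M-values (TMM). Mettl3 was at 5.34 ± 0.449 CPM in Mettl3 KD and 14.9 ± 1.02 CPM in scramble, and Mettl14 was at 14.7 ± 0.720 CPM in Mettl14 KD and 25.2 ± 1.70 CPM in scramble (SD, n = 4 and 3). Mettl14 was at 29.3 ± 1.02 CPM in Mettl3 KD, above scramble in every library, and Mettl3 was at 15.4 ± 1.02 CPM in Mettl14 KD. The targets were thus lowered by unequal proportions, and the part of this in differences between the knockdowns was not tested. Of 10 alpha cell markers, 9 exceeded 1 CPM in every library, with Gcg, which encodes glucagon, at a median of 36020 CPM, and Gc had no count. Of 9 beta cell markers, 2 exceeded 1 CPM in every library, the zinc transporter Slc30a8 at a median of 356 CPM and the transcription factor Nkx6-1 at 53.1 CPM. The list summed to 425 to 443 CPM in Mettl3 KD, 400.1 to 412 CPM in Mettl14 KD and 368 to 382 CPM in scramble. This order was that of Slc30a8, at means of 380 CPM in Mettl3 KD, 355 CPM in Mettl14 KD and 311 CPM in scramble. Nkx6-1 went the other way, at means of 51.5 CPM in Mettl3 KD, 52.2 CPM in Mettl14 KD and 60.8 CPM in scramble. The part of these markers in the results was not tested. The insulin genes Ins1 and Ins2 had at most 2 counts in a library and Pdx1 none, and each of 5 delta, PP and epsilon cell markers had at most 4. Scramble replicate 2 stood apart: 12 lung and blood markers had a sum of 125 CPM in it, where no other library exceeded 6.41 CPM, and 6 mesenchymal and endothelial markers had a sum of 27.9 CPM in it, where no other library exceeded 13.6 CPM. Among the scramble libraries it was lowest for Dlst, Fh1 and Mdh1 and highest for Cs and Ogdh; its part in the results was not tested beyond the values given without it.

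The sequences before the start site are shown for 3 of the 5 members that rose in both knockdowns, Dlst, Fh1 and Mdh2, and for Idh2, which differed between the knockdowns. Ogdh and Idh3a also rose in both; Ogdh, with several windows, is not shown, and Idh3a is named only. The 250 bases before the RefSeq start (build GRCm38.p6) are given 5′ to 3′ on the gene's strand, with capitals for matches, on either strand, to GGGCGG (SP factors) or CCAAT (NF-Y); no matches overlapped. The windows are chr12:85110583-85110832, plus strand for Dlst, chr1:175625636-175625885, minus strand for Fh1, chr5:135778399-135778648, plus strand for Mdh2 and chr7:80115351-80115600, minus strand for Idh2.
Dlst: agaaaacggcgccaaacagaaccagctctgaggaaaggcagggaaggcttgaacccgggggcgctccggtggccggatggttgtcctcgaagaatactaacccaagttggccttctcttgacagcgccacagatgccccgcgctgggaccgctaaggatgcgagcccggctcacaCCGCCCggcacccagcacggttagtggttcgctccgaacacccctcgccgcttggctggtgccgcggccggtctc
Fh1: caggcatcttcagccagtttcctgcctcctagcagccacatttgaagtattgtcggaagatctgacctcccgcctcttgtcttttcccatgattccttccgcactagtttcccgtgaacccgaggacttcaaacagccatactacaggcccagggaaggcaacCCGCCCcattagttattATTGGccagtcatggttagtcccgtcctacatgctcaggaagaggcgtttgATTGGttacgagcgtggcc
Mdh2: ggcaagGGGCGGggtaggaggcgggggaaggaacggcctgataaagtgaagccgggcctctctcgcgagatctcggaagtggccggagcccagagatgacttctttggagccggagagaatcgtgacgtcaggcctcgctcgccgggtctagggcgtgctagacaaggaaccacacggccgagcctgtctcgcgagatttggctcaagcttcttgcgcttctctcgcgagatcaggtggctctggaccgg
Idh2: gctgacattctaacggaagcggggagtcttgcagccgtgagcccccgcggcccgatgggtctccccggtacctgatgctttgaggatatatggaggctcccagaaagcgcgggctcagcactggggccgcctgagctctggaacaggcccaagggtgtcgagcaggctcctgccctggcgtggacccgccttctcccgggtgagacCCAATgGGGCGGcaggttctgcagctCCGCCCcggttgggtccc
Of the 8 members with a window, 7 held GGGCGG, against 56.9% of windows of genes tested, and 5 held CCAAT, against 36.1%. The core of the hypoxia response element, ACGTG, was found for Mdh1 and Ogdh, against 21.6% of those windows. The letters AAGGTCA, bound by oestrogen-related receptors, and CTTCCGG, bound by ETS factors, were found in none of the 8 members' windows, against 2.79% and 13.4%. Ogdh had 6 windows and each other gene 1, so a match for Ogdh had more sequence to occur in.

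The letters GGACT, the core that the writer complex most often methylates, are shown in the transcript because the knockdowns lower transcripts of the writer; a match is not a measured site. GENCODE M21 principal transcripts of the members were 1456 to 4127 bases long, with a median of 2403 bases, against 2909 over 13731 genes tested. They held a median of 0.69 GGACT per kilobase, against 1.04 over those genes. Idh2 and Fh1 held none, as did 9.9% of those genes, while Ogdh held 7 and Cs 5. The match nearest the stop codon, in capitals with 10 bases on either side, ended within the last codons of Cs and Mdh2, and lay in the 3′ untranslated region of Ogdh and Dlst.
Cs: tgaagtttgtGGACTctaagtaagg
Mdh2: agaaaggcgaGGACTttgtcaagaa
Ogdh: ggtatttagaGGACTttagcagtga
Dlst: cctgacgaagGGACTgttctcacaa
In Cs the match began 10 bases before the stop codon, and in Mdh2 22 bases before it. In Ogdh and Dlst it began 517 and 814 bases after the first base of the stop codon. The nearest matches of Idh3a, Suclg1 and Mdh1, not shown, began 144, 341 and 1255 bases before the stop codon.

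Per length of the principal transcript, the malate dehydrogenases were the most abundant of the 9 and fumarase the least. Mdh2, the mitochondrial enzyme, was at 559 ± 11.4 CPM per kilobase in Mettl3 KD, 571 ± 4.06 in Mettl14 KD and 528 ± 13.4 in scramble. Mdh1, its cytosolic counterpart in the malate-aspartate shuttle, was at 389.9 ± 3.94 CPM per kilobase in Mettl3 KD, 417 ± 9.46 in Mettl14 KD and 374 ± 25.7 in scramble. Cs and Idh2 came next. Their order changed between groups: Idh2 was above Cs in every library of Mettl14 KD, at 171 ± 2.80 against 157 ± 1.15 CPM per kilobase, and in every library of scramble, at 167 ± 6.27 against 149.6 ± 3.11, whereas their ranges overlapped in Mettl3 KD, at 158 ± 3.57 and 159 ± 1.86.

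Ogdh, Idh3a and Dlst, which serve the oxidative decarboxylation steps, formed a group of nearly equal levels, at 102 ± 1.72, 101 ± 1.79 and 95.5 ± 1.10 CPM per kilobase in Mettl3 KD and 88.0 ± 0.938, 87.6 ± 2.61 and 84.3 ± 4.39 in scramble. Neighbours within it overlapped in range in scramble and in Mettl14 KD, and in Mettl3 KD Dlst lay below the others in every library. Suclg1 and Fh1 closed the order in every group, with Suclg1 above Fh1 in each library: Suclg1 was at 67.4 ± 2.07 CPM per kilobase in Mettl3 KD, 70.1 ± 1.46 in Mettl14 KD and 66.6 ± 2.94 in scramble. Fh1 was at 64.0 ± 0.481 CPM per kilobase in Mettl3 KD, 65.9 ± 1.5 in Mettl14 KD and 58.0 ± 1.59 in scramble. These levels rest on 1 transcript per gene; which isoforms the cells used was not determined.

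**Figure D1:**
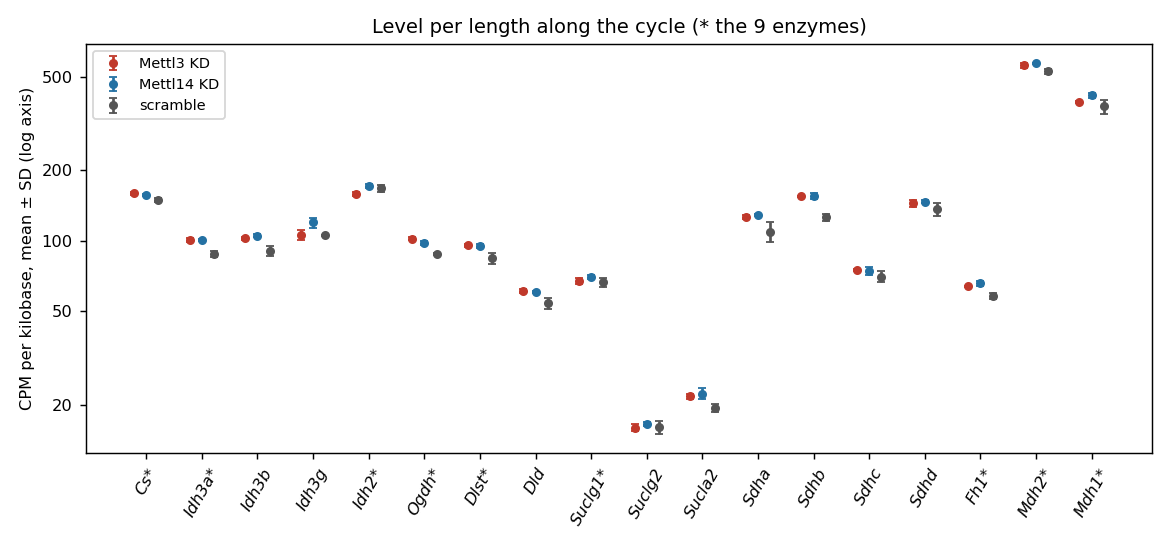
Level per length (CPM per kilobase of principal transcript, log axis, mean ± SD over libraries) of the 9 enzymes, starred, and 9 further subunits of the cycle, in Mettl3 KD (n = 4), Mettl14 KD (n = 4) and scramble (n = 3). Mdh2 is highest of the starred genes in each group and Fh1 lowest.

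Most of the 9 transcripts were higher in both knockdowns than in scramble, by small amounts. In Mettl3 KD, 6 of 9 rose (Cs, Idh3a, Ogdh, Dlst, Fh1 and Mdh2) and none fell (edgeR, quasi-likelihood F-test, Benjamini-Hochberg adjusted p under 0.05 over all genes), where 15.5% of all genes tested rose, 15.8% fell and 31.3% passed in either direction. In Mettl14 KD, 6 of 9 rose (Idh3a, Ogdh, Dlst, Fh1, Mdh1 and Mdh2) and none fell, where 10.1% of all genes rose, 10.8% fell and 20.9% passed. The median log2 fold change of the members was 0.09 in Mettl3 KD and 0.15 in Mettl14 KD, against -0.0039 in Mettl3 KD and 0.00032 in Mettl14 KD over all genes. All libraries of Mettl3 KD lay above all of scramble for 6 of the 9, the same 6 that were called, as they did for 17.5% of all genes, and below for none, against 17.9%, or 35.5% in either direction. All libraries of Mettl14 KD lay above all of scramble for 7 of the 9, the 6 called and Cs, as for 14.4% of all genes, and below for none, against 14.6%, or 28.9% in either direction. Without scramble replicate 2, 6 rose in Mettl3 KD and 7 in Mettl14 KD, Cs being added. In that fit, 2188 of 14316 genes tested rose in Mettl3 KD and 1337 in Mettl14 KD. Both comparisons share the 3 scramble libraries, so their likeness is in part built in. The members were chosen with earlier results of these data known, so their counts beside those of all genes are descriptions. Together the 9 transcripts made up 0.356% to 0.361% of normalised counts in Mettl3 KD and 0.365% to 0.369% in Mettl14 KD. In scramble the share was 0.328% to 0.342%, and none of these ranges overlapped. This sum is weighted toward the most abundant members, and how often other sets of genes separate the groups was not tested. Taken singly, only Idh2, Mdh1 and Ogdh had no overlap between the knockdowns. Idh2 and Mdh1 were lower in Mettl3 KD and Ogdh was higher, and only Idh2 was called. The sum therefore does not show a difference between the knockdowns shared by the 9. In bulk RNA, fewer cells of a type and less RNA per cell cannot be told apart.

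**Figure D2:**
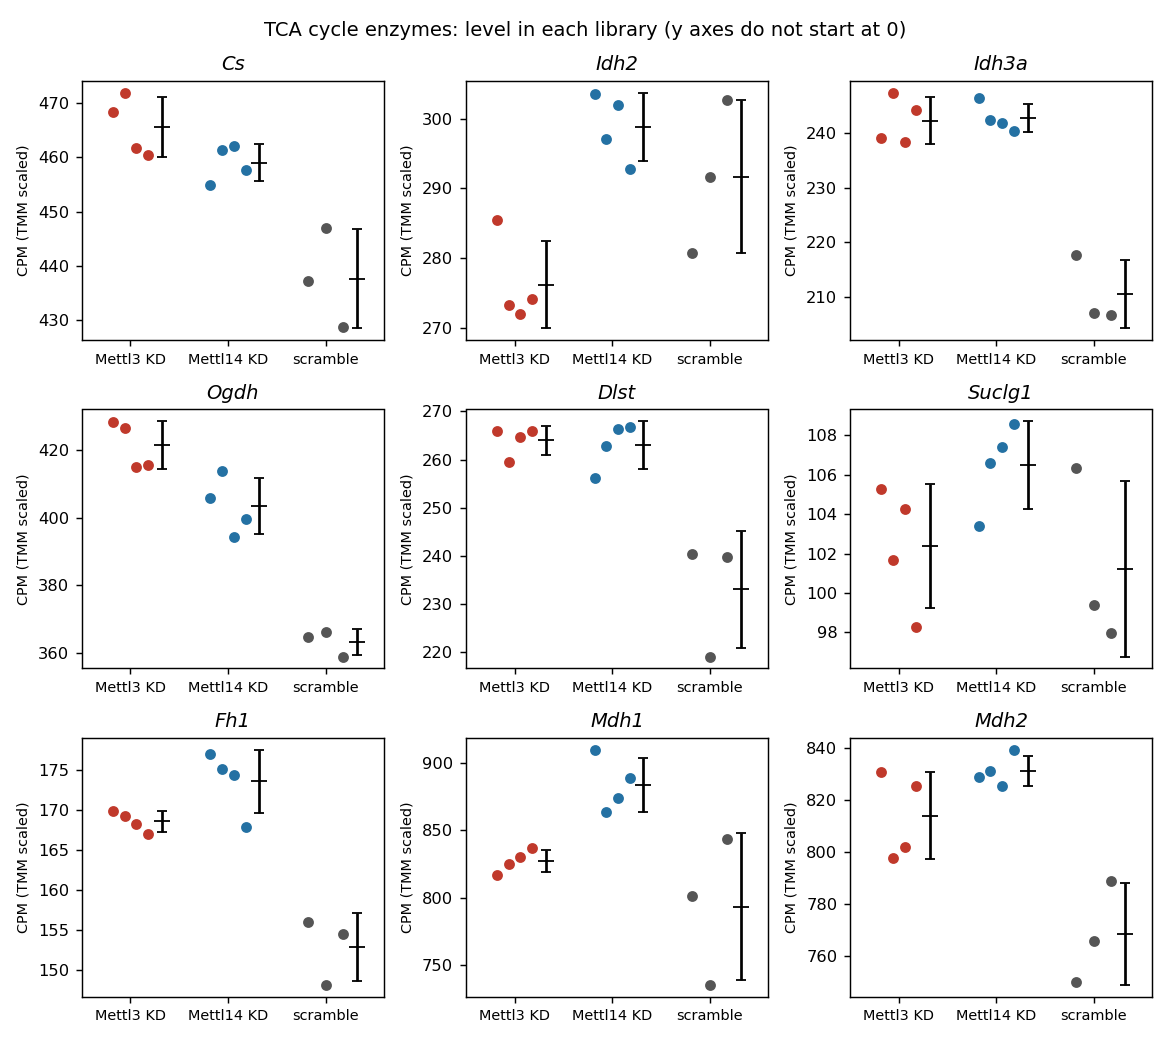
Level of each enzyme's transcript (CPM, TMM-scaled; y axes do not start at 0) in every library of Mettl3 KD, Mettl14 KD and scramble, with the mean ± SD beside each group in black. Every library of both knockdowns lies above every scramble library for Cs, Idh3a, Ogdh, Dlst, Fh1 and Mdh2.

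Ogdh, Idh3a and Dlst had the largest log2 fold changes of the 9 in Mettl3 KD. Idh2, also an isocitrate dehydrogenase, was at -0.08 there. In Mettl14 KD Idh3a was followed by Fh1, Dlst, Mdh1 and Ogdh. Ogdh encodes the thiamine-dependent dehydrogenase of the 2-oxoglutarate dehydrogenase complex. Ogdh had 429, 427, 415 and 416 CPM in the Mettl3 KD libraries, 406, 414, 394 and 399.6 CPM in the Mettl14 KD libraries and 365, 366 and 359 CPM in the scramble libraries. The groups did not overlap, and the Mettl3 KD libraries were also each above the Mettl14 KD libraries. Its log2 fold change against scramble was 0.21 ± 0.03 (adjusted p = 1.6e-05) in Mettl3 KD, 16.1% higher, and 0.15 ± 0.03 (adjusted p = 0.00105) in Mettl14 KD, 11.1% higher, by edgeR's quasi-likelihood test. The knockdowns themselves differed by 0.06 ± 0.03 (adjusted p = 0.178), which did not pass.

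Dlst encodes the lipoylated succinyltransferase that forms the core of the same complex. Dlst had 266, 259.5, 265 and 266 CPM in the Mettl3 KD libraries, 256, 263, 266 and 267 CPM in the Mettl14 KD libraries and 240.5, 219 and 239.7 CPM in the scramble libraries. All knockdown libraries were above all scramble libraries, and the knockdowns overlapped. Dlst rose by 0.18 ± 0.03 (adjusted p = 0.000448) on the log2 scale in Mettl3 KD and 0.17 ± 0.03 (adjusted p = 0.00107) in Mettl14 KD in edgeR's test. Scramble replicate 2 was the lowest of the scramble libraries for Dlst; without it the increases were 0.14 in Mettl3 KD and 0.13 in Mettl14 KD, and both passed. Per length, Ogdh stood to Dlst at 1.07 ± 0.0257 in Mettl3 KD, 1.03 ± 0.0355 in Mettl14 KD and 1.05 ± 0.0639 in scramble, and the ranges of all 3 groups overlapped.

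Idh3a encodes the catalytic alpha subunit of the NAD-dependent isocitrate dehydrogenase. Idh3a had 239, 247, 238 and 244 CPM in the Mettl3 KD libraries, 246, 242, 242 and 240.3 CPM in the Mettl14 KD libraries and 218, 207 and 207 CPM in the scramble libraries. The knockdowns overlapped each other, and all their libraries were above all scramble libraries. Idh3a rose by 0.20 ± 0.03 (adjusted p = 4.31e-05) in Mettl3 KD and 0.21 ± 0.03 (adjusted p = 6.78e-05) in Mettl14 KD on the log2 scale (edgeR), with a difference between the knockdowns of -0.0029 ± 0.03 (95% interval -0.06 to 0.06).

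Fumarase, encoded by Fh1, hydrates fumarate to malate. Fh1 had 169.9, 169, 168 and 167 CPM in the Mettl3 KD libraries, 177, 175, 174 and 168 CPM in the Mettl14 KD libraries and 156, 148 and 154 CPM in the scramble libraries. No scramble library reached the level of any knockdown library. Fh1 rose by 0.14 ± 0.03 (adjusted p = 0.00173) in Mettl3 KD and 0.18 ± 0.03 (adjusted p = 0.000273) in Mettl14 KD (log2, edgeR). For Ogdh, Idh3a, Dlst and Fh1, both increases passed under all 17 alternatives tried, including leaving out each library; over these, the log2 fold changes against scramble ran from 0.12 to 0.23.

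**Figure D3:**
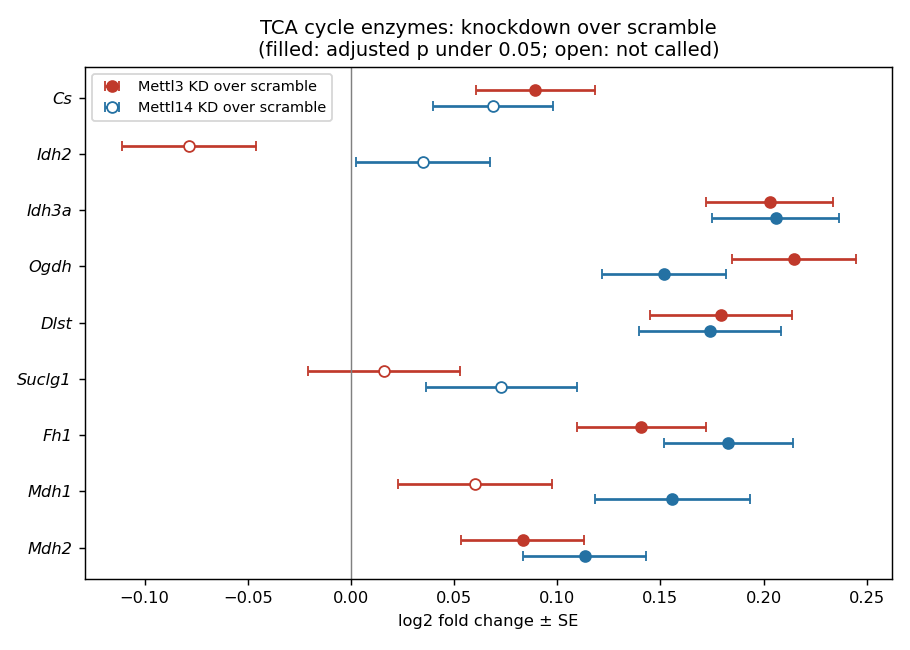
Log2 fold change ± SE of each enzyme's transcript in Mettl3 KD (red) and Mettl14 KD (blue) over scramble from edgeR's fit to all 11 libraries. Filled points had an adjusted p under 0.05; Idh3a, Ogdh, Dlst, Fh1 and Mdh2 are filled in both comparisons, and Idh2 and Suclg1 in neither.

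Citrate synthase and mitochondrial malate dehydrogenase, at the point where acetyl-CoA enters, moved less. Cs had 468, 472, 462 and 460.3 CPM in the Mettl3 KD libraries, 455, 461, 462 and 458 CPM in the Mettl14 KD libraries and 437, 447 and 429 CPM in the scramble libraries. The knockdown libraries were above the scramble libraries by margins of a few per cent. Cs passed in Mettl3 KD at 0.09 ± 0.03 (adjusted p = 0.0228) and did not in Mettl14 KD at 0.07 ± 0.03 (adjusted p = 0.0971), while the knockdowns differed by 0.02 ± 0.03 (95% interval -0.04 to 0.08); edgeR's test of that difference did not pass. The Mettl3 KD call was lost when scramble replicate 1 or 3, or Mettl3 KD replicate 1 or 2, was left out, at 0.08 to 0.09. It was also lost with no filter on low counts (adjusted p = 0.0606) and with only Mettl3 KD and scramble in the edgeR fit (adjusted p = 0.0593). In Mettl14 KD a call was made without scramble replicate 2, at 0.08, and by DESeq2.

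Mdh2 had 831, 798, 802 and 826 CPM in the Mettl3 KD libraries, 828.8, 831, 826 and 839 CPM in the Mettl14 KD libraries and 750.4, 766 and 789 CPM in the scramble libraries. Scramble replicate 3 was closest to the knockdown libraries. Mdh2 rose by 0.08 ± 0.03 (adjusted p = 0.0384) in Mettl3 KD and 0.11 ± 0.03 (adjusted p = 0.00968) in Mettl14 KD (log2, edgeR). The Mettl3 KD call was lost when scramble replicate 1, Mettl3 KD replicate 1 or 4, or replicate 3 of Mettl14 KD was left out, at 0.07 to 0.08, and with the replicate number as a block (adjusted p = 0.106). It was also lost with no filter on low counts (adjusted p = 0.0780) and with only Mettl3 KD and scramble in the edgeR fit (adjusted p = 0.0874). The Mettl14 KD call held under all 17 alternatives.

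Mdh1 reduces oxaloacetate in the cytosol and so carries reducing equivalents toward the mitochondria. Mdh1 had 817, 825, 830.5 and 837 CPM in the Mettl3 KD libraries, 909.8, 863, 874 and 889 CPM in the Mettl14 KD libraries and 801, 736 and 844 CPM in the scramble libraries. The scramble libraries spanned a wide range: the Mettl3 KD libraries lay within it and the Mettl14 KD libraries above it. Mdh1 rose in Mettl14 KD, by 0.16 ± 0.04 (adjusted p = 0.00528) on the log2 scale, and did not pass in Mettl3 KD, at 0.06 ± 0.04 (adjusted p = 0.238) (edgeR). Each Mettl3 KD library was below each Mettl14 KD library, and the difference of -0.10 ± 0.03 (adjusted p = 0.0992) did not pass. It passed without scramble replicate 2 (adjusted p = 0.00304), a library in neither of these groups. Against scramble, the Mettl3 KD value passed without scramble replicate 3, at 0.11, and ran from 0.01 to 0.11 over the alternatives.

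Suclg1, the alpha subunit shared by the ATP-forming and GTP-forming succinyl-CoA ligases, passed in neither knockdown. Suclg1 had 105, 102, 104 and 98.3 CPM in the Mettl3 KD libraries, 103, 107, 107 and 109 CPM in the Mettl14 KD libraries and 106, 99.4 and 98.0 CPM in the scramble libraries. The groups overlapped. The log2 fold changes were 0.02 ± 0.04 (adjusted p = 0.779) in Mettl3 KD, 95% interval -0.06 to 0.09, and 0.07 ± 0.04 (adjusted p = 0.170) in Mettl14 KD, 95% interval -0.0035 to 0.15, by edgeR. Without scramble replicate 1 the Mettl14 KD value was 0.11 and passed. Its estimated counts were not whole in all 11 libraries, and kallisto divides reads that match several transcripts, so its level is less certain than its count shows.

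Idh2 was the only one of the 9 called between the knockdowns. It encodes the mitochondrial isocitrate dehydrogenase that makes NADPH. Idh2 had 285, 273, 272 and 274 CPM in the Mettl3 KD libraries, 304, 297, 302 and 293 CPM in the Mettl14 KD libraries and 281, 292 and 303 CPM in the scramble libraries. All Mettl3 KD libraries were below all Mettl14 KD libraries, and scramble overlapped both. The log2 fold change of Mettl3 KD over Mettl14 KD was -0.11 ± 0.03 (adjusted p = 0.0226) by edgeR, where 4.44% of all genes were lower, 3.66% higher and 8.1% passed in either direction. All Mettl3 KD libraries were below all Mettl14 KD libraries for Idh2 and Mdh1, as for 9.21% of all genes, and above them for Ogdh, as for 8.43%, or 17.6% in either direction. Against scramble it did not pass in Mettl3 KD, at -0.08 ± 0.03 (adjusted p = 0.0718), or in Mettl14 KD, at 0.03 ± 0.03 (adjusted p = 0.488). The call between the knockdowns was lost when any of Mettl3 KD replicates 2, 3 and 4 was left out, or Mettl14 KD replicate 1 or 3, with a value of -0.11 each time, and with the replicate block (adjusted p = 0.0539). In Mettl3 KD against scramble it was called lower without scramble replicate 1, at -0.11, or Mettl3 KD replicate 1, at -0.10, and was at -0.04 without scramble replicate 3.

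The members that moved did not do so by the same amount, and the libraries show how far they varied together. Over all 11 libraries the median Pearson r of log2 CPM among the 36 pairs of members was 0.633, from -0.402 for Idh2 and Ogdh to 0.934 for Idh3a and Fh1. After each group's mean was taken out the median was 0.117, from -0.891 for Cs and Mdh1 to 0.702 for Idh2 and Mdh2. In such a correlation the genes of a library share its depth and scaling, and these values are descriptions. The mean standardised level of the 9 was 0.05 to 0.46 in Mettl3 KD, 0.59 to 0.65 in Mettl14 KD and -1.40 to -0.93 in scramble. Among 9334 other genes with a mean of at least 10 CPM, the 5 whose profile over the 11 libraries was most like this mean were Uhmk1, Tgfbi, Pigk, Oxtr and Tmco3, with r from 0.967 to 0.976.

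Most of the remaining subunits of the cycle were also higher in the knockdowns. Of 9 such genes, 5 rose in Mettl3 KD and 6 in Mettl14 KD, and none fell. The share of all genes tested that rose was 15.5% in Mettl3 KD and 10.1% in Mettl14 KD, and 15.8% and 10.8% fell. Median log2 fold changes of the 9 were 0.16 in Mettl3 KD and 0.18 in Mettl14 KD. Without scramble replicate 2 the counts for the 9 were the same and their medians 0.13 in Mettl3 KD and 0.16 in Mettl14 KD. In that fit, 2188 of 14316 genes rose in Mettl3 KD and 1337 in Mettl14 KD. Dld, the flavin subunit that Ogdh and Dlst share with pyruvate dehydrogenase, rose by 0.17 ± 0.04 in Mettl3 KD and 0.16 ± 0.04 in Mettl14 KD, and Sucla2, the ATP-specific partner of Suclg1, by 0.16 ± 0.05 in Mettl3 KD and 0.20 ± 0.05 in Mettl14 KD. Suclg2, the GTP-specific partner, did not pass, at -0.0015 ± 0.04 in Mettl3 KD and 0.05 ± 0.04 in Mettl14 KD.

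Among the subunits of succinate dehydrogenase, the catalytic Sdha rose by 0.21 ± 0.05 in Mettl3 KD and 0.24 ± 0.05 in Mettl14 KD on the log2 scale, and the iron-sulphur subunit Sdhb, with the largest increase in both knockdowns among the genes of the cycle described here, had 177, 177, 176 and 177 CPM with Mettl3 KD, 177, 171, 176 and 184 CPM with Mettl14 KD and 139, 148 and 143 CPM with scramble. Its log2 fold changes were 0.30 ± 0.03 (adjusted p = 9.37e-07) in Mettl3 KD and 0.30 ± 0.03 (adjusted p = 1.21e-06) in Mettl14 KD by edgeR. Without scramble replicate 2 the increases of Sdha were 0.13 in Mettl3 KD and 0.16 in Mettl14 KD. The membrane anchors Sdhc and Sdhd did not pass, at 0.09 ± 0.04 and 0.09 ± 0.04 in Mettl3 KD and 0.08 ± 0.04 and 0.11 ± 0.04 in Mettl14 KD. Sdhc passed in both without scramble replicate 1, and Sdhd without scramble replicate 3 in both and without scramble replicate 1 in Mettl14 KD. Sdhd was at 0.03 in Mettl3 KD and 0.06 in Mettl14 KD without scramble replicate 2.

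Of the subunits of the NAD-dependent isocitrate dehydrogenase, Idh3g was called between the knockdowns and Idh3a and Idh3b were not. Idh3b, a regulatory subunit, rose with Idh3a, by 0.18 ± 0.03 in Mettl3 KD and 0.21 ± 0.03 in Mettl14 KD. Idh3g, the other regulatory subunit, had 145, 129.9, 146 and 143 CPM with Mettl3 KD, 157, 171, 154 and 156 CPM with Mettl14 KD and 141, 140.2 and 139.8 CPM with scramble. The Mettl14 KD libraries were above all others, while the Mettl3 KD libraries lay on either side of scramble. Idh3g rose in Mettl14 KD, by 0.18 ± 0.04 (adjusted p = 0.00330), and did not pass in Mettl3 KD, at 0.0067 ± 0.04 (adjusted p = 0.924), and the difference of -0.18 ± 0.04 (adjusted p = 0.00584) between the knockdowns passed edgeR's test, also without any 1 library. Per length, Idh3a stood to Idh3g at 0.956 ± 0.0683 in Mettl3 KD, 0.846 ± 0.0410 in Mettl14 KD and 0.832 ± 0.0226 in scramble (SD over libraries).

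Genes around the entry of pyruvate went both ways. Of 11 tested, 3 rose and 5 fell in Mettl3 KD, and 3 rose and 5 fell in Mettl14 KD. Of all genes tested, 31.3% passed in either direction in Mettl3 KD and 20.9% in Mettl14 KD. Without scramble replicate 2, 3 of the 11 rose and 6 fell in Mettl3 KD, and 3 rose and 3 fell in Mettl14 KD. Pdhx, which tethers Dld to the pyruvate dehydrogenase core, rose by 0.25 ± 0.05 in Mettl3 KD and 0.29 ± 0.05 in Mettl14 KD. The kinase Pdk1, which switches that complex off, averaged 57.0 ± 4.55 CPM with Mettl3 KD, 53.9 ± 5.70 CPM with Mettl14 KD and 119 ± 4.58 CPM with scramble, a log2 fold change of -1.06 ± 0.08 (adjusted p = 2.2e-06) in Mettl3 KD and -1.14 ± 0.08 (adjusted p = 2.05e-06) in Mettl14 KD by edgeR. Pdk2, another kinase of the complex, was at -0.44 ± 0.04 in Mettl3 KD and -0.32 ± 0.04 in Mettl14 KD, called lower in both. The others, chosen after their values were seen, were Pdhb, a subunit of the dehydrogenase, and the pyruvate carrier subunit Mpc2, which rose by 0.21 ± 0.04 and 0.26 ± 0.06 in Mettl3 KD, and Mpc1, the other carrier subunit, Pdk3, one more kinase, and Pdp2, a phosphatase that switches the complex on, at -0.23 ± 0.04, -0.22 ± 0.06 and -0.31 ± 0.06 in Mettl3 KD and -0.16 ± 0.04, -0.21 ± 0.06 and -0.28 ± 0.06 in Mettl14 KD. Pdhb and Mpc2 rose by 0.23 ± 0.04 and 0.33 ± 0.06 in Mettl14 KD. The Mettl14 KD calls of Mpc1 and Pdk3 were those lost without scramble replicate 2; that of Mpc1 was also lost without replicate 2 or 3 of Mettl14 KD, and that of Pdk3 without replicate 2 or 4. Without scramble replicate 2, Mpc1 was at -0.10 in Mettl14 KD, and Pdk3 at -0.13 in Mettl3 KD and -0.12 in Mettl14 KD.

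Genes of the route by which citrate leaves the cycle were mostly lower. Slc25a1, the mitochondrial citrate carrier, was at 60.6 ± 2.49 CPM with Mettl3 KD, 70.8 ± 2.80 CPM in Mettl14 KD and 114 ± 8.30 CPM in scramble. It fell in both, with log2 fold changes of -0.91 ± 0.05 (adjusted p = 2.71e-11) in Mettl3 KD and -0.69 ± 0.05 (adjusted p = 1.83e-09) in Mettl14 KD, and was lower in Mettl3 KD than in Mettl14 KD, at -0.23 ± 0.04 (adjusted p = 0.00330) (edgeR). In the cytosol, Acly, which splits citrate to acetyl-CoA, was at -0.31 ± 0.04 in Mettl3 KD and -0.19 ± 0.04 in Mettl14 KD, and Idh1, the cytosolic NADPH-forming counterpart of Idh2, at -0.28 ± 0.04 in Mettl3 KD and -0.16 ± 0.04 in Mettl14 KD, all called lower; the Mettl14 KD call of Idh1 ended without scramble replicate 3. Aco1, the cytosolic aconitase, did not pass, at 0.0097 ± 0.04 in Mettl3 KD and -0.03 ± 0.04 in Mettl14 KD. Per length, Idh2 stood to Idh1 at 4.09 ± 0.168 in Mettl3 KD, 4.07 ± 0.0788 in Mettl14 KD and 3.55 ± 0.174 in scramble. Of 6 carriers tested, 2 fell and 0 rose in either knockdown, the second being the glutamate carrier Slc25a22, at -0.16 ± 0.04 in Mettl3 KD and -0.20 ± 0.04 in Mettl14 KD. Over all genes tested, 31.3% passed in either direction in Mettl3 KD and 20.9% in Mettl14 KD. Without scramble replicate 2, 2 more passed as higher in Mettl3 KD, the dicarboxylate carrier Slc25a10 and the aspartate-glutamate carrier Slc25a13, at 0.07 ± 0.04 and 0.11 ± 0.05 with every library.

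Enzymes that fill or drain the cycle were mixed. Of 13 genes of anaplerosis and transamination, 3 rose and 2 fell in Mettl3 KD, and 3 rose and 3 fell in Mettl14 KD. For this list and the next, the share of all genes that passed in either direction was 31.3% in Mettl3 KD and 20.9% in Mettl14 KD. Got1, the cytosolic aspartate aminotransferase that works with Mdh1 in the shuttle, rose by 0.18 ± 0.04 in Mettl3 KD and 0.23 ± 0.04 in Mettl14 KD. Pck2, the mitochondrial phosphoenolpyruvate carboxykinase, was at -0.30 ± 0.04 in Mettl3 KD and -0.27 ± 0.04 in Mettl14 KD and the mitochondrial alanine aminotransferase Gpt2 at -0.22 ± 0.05 in Mettl3 KD and -0.25 ± 0.05 in Mettl14 KD, all called lower. Of the rest, chosen after their values were seen, the malic enzyme Me3 rose by 0.25 ± 0.09 in Mettl3 KD and 0.37 ± 0.09 in Mettl14 KD and the methylmalonyl-CoA mutase Mmut by 0.24 ± 0.07 in Mettl3 KD and 0.21 ± 0.07 in Mettl14 KD, and pyruvate carboxylase, Pcx, was called lower in Mettl14 KD, at -0.15 ± 0.03, and not in Mettl3 KD, at -0.04 ± 0.03. The Mettl3 KD call of Me3 was lost without scramble replicate 1 or 2 or replicate 1 or 4 of Mettl3 KD, and the Mettl14 KD call of Mmut without scramble replicate 1 or 2 or replicate 1 of Mettl14 KD; without scramble replicate 2 Mmut was at 0.14 in Mettl14 KD. Of 10 genes for lipoylation, complex assembly and variant enzymes, 1 rose and 1 fell in Mettl3 KD, and 1 rose in Mettl14 KD; without scramble replicate 2, 1 rose and 1 fell in Mettl14 KD. Ogdhl, an isoenzyme of Ogdh, fell in Mettl3 KD at -0.20 ± 0.04 (adjusted p = 0.000467) (edgeR), opposite to Ogdh, and did not pass in Mettl14 KD at -0.11 ± 0.04 (adjusted p = 0.0577). In Mettl14 KD Ogdhl was called without scramble replicate 1 or 2, and was at -0.06 without scramble replicate 3. Ogdh stood to Ogdhl, per length, at 3.72 ± 0.111 in Mettl3 KD, 3.33 ± 0.178 in Mettl14 KD and 2.79 ± 0.154 in scramble, with no overlap between the knockdown and the scramble libraries. The 1 gene that rose in Mettl3 KD was the succinate dehydrogenase assembly factor Sdhaf2, at 0.16 ± 0.05, a call lost if scramble replicate 3, or replicate 1 or 3 of Mettl3 KD, was left out. In Mettl14 KD it was Mrps36, an adaptor of the 2-oxoglutarate dehydrogenase complex, at 0.16 ± 0.05, not called without 7 of the 11 libraries, which were scramble replicate 3, each Mettl3 KD replicate and Mettl14 KD replicates 2 and 4.

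Among 10 regulators of mitochondrial biogenesis, 4 rose and 2 fell in Mettl3 KD, and 4 rose and 1 fell in Mettl14 KD. Over all genes tested, 15.5% rose and 15.8% fell in Mettl3 KD, and 10.1% rose and 10.8% fell in Mettl14 KD. Without scramble replicate 2, 4 of the 10 rose and 3 fell in Mettl3 KD, and 6 rose and 1 fell in Mettl14 KD. In that fit, 2188 of 14316 genes rose and 2155 fell in Mettl3 KD, and 1337 rose and 1449 fell in Mettl14 KD. The oestrogen-related receptors Esrrg and Esrra, which activate genes of oxidative metabolism, rose by 0.48 ± 0.06 and 0.24 ± 0.06 in Mettl3 KD and 0.39 ± 0.06 and 0.27 ± 0.06 in Mettl14 KD. Without scramble replicate 2, Esrra was at 0.14 in Mettl3 KD and 0.17 in Mettl14 KD, and both calls held. Ppargc1a, their coactivator, was at 141 ± 5.24 CPM with Mettl3 KD, 166 ± 3.36 CPM in Mettl14 KD and 152 ± 8.0 CPM in scramble; it was chosen after its values were seen. It fell in Mettl3 KD at -0.11 ± 0.04 (adjusted p = 0.0291), rose in Mettl14 KD at 0.13 ± 0.04 (adjusted p = 0.0209), and differed between them by -0.24 ± 0.03 (adjusted p = 0.000180) in edgeR's test. The difference between the knockdowns passed without any 1 library; the Mettl3 KD call was lost without scramble replicate 1 (at -0.07), replicate 1, 2 or 4 of Mettl3 KD or replicate 1 or 4 of Mettl14 KD, and the Mettl14 KD call without scramble replicate 3 or replicate 2 of Mettl14 KD. Yy1, a repressor and activator of mitochondrial genes, was called lower in both, at -0.15 ± 0.03 in Mettl3 KD and -0.13 ± 0.03 in Mettl14 KD. Tfam, which packages and transcribes mitochondrial DNA, rose by 0.11 ± 0.04 in Mettl3 KD and 0.14 ± 0.04 in Mettl14 KD, and Gabpb1, a subunit of an ETS factor, by 0.14 ± 0.05 in Mettl3 KD; these were also chosen after their values were seen, and both Mettl3 KD calls were lost without most single libraries, leaving them called in 4 and 3 of 11 fits.

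Beside the 9 members, most nuclear genes of the respiratory chain were also higher in the knockdowns, and most glycolytic genes were lower. Across all genes tested, 15.5% rose and 15.8% fell in Mettl3 KD, and 10.1% rose and 10.8% fell in Mettl14 KD. Of 30 nuclear-encoded respiratory genes, 19 rose in each knockdown and 1, the cytochrome oxidase subunit Cox6a1, fell in Mettl3 KD, at -0.11 ± 0.04, a call lost without replicate 2 or 3 of Mettl3 KD, with medians of 0.18 in Mettl3 KD and 0.19 in Mettl14 KD; without scramble replicate 2 the medians were 0.12 in Mettl3 KD and 0.14 in Mettl14 KD, against 0.10 in Mettl3 KD and 0.11 in Mettl14 KD for the 9 members. Of 17 glycolytic genes, 15 fell and 1 rose in each knockdown, with a median of -0.57 in both. The gene that rose was Ldhb, lactate dehydrogenase B, at 0.45 ± 0.05 in Mettl3 KD and 0.45 ± 0.05 in Mettl14 KD. Differences between these lists were not tested.

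**Figure D4:**
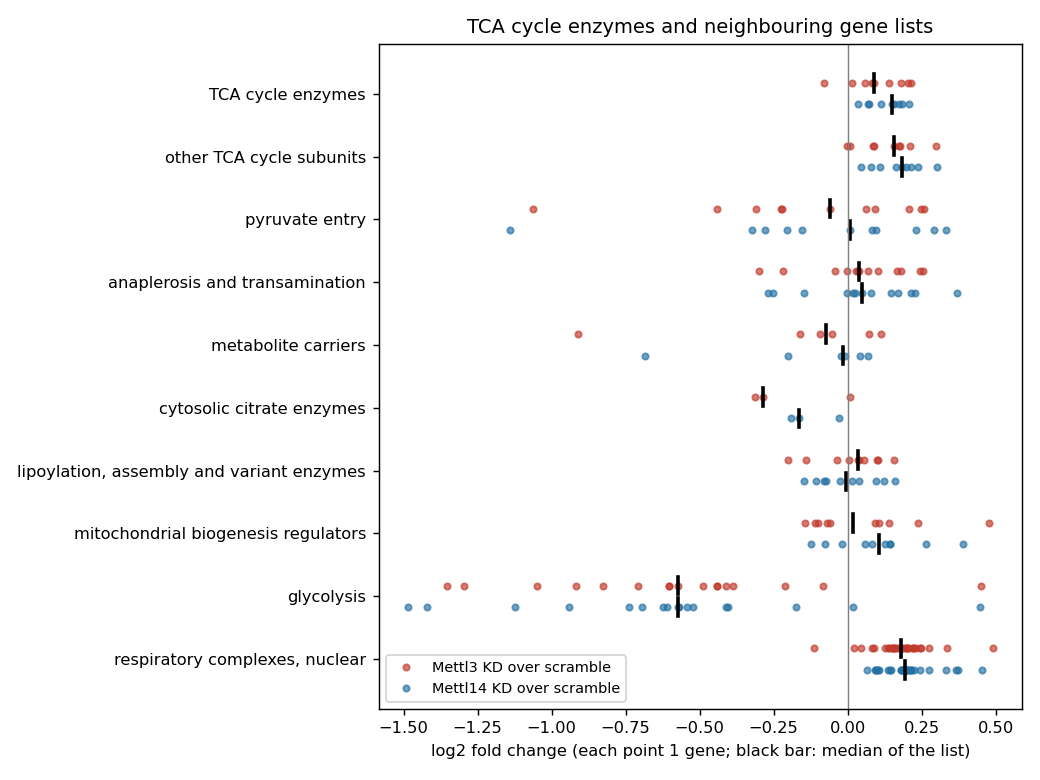
Log2 fold change over scramble of every tested gene in the 9 members and 9 neighbouring lists, for Mettl3 KD (red) and Mettl14 KD (blue); black bars are medians. The members' medians are 0.09 in Mettl3 KD and 0.15 in Mettl14 KD, and those of glycolysis -0.57 in both.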

How the data were processed

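The authors deposited 1 table of estimated counts per Ensembl gene with 1 column per library; kallisto is named in the submitters' processing notes, while version, transcript-to-gene summing, build and annotation were not given in the sources used here. Labels state a stranded mRNA library. The deposited expected counts were not scaled, 11.6% were not whole, and they were rounded. Symbols came from GENCODE M21, matching 48651 of 53947 rows. Genes were kept by filterByExpr with a minimum count of 10. All 11 libraries were fitted with a mean per group in edgeR 4.0.16 (R 4.3.3, robust quasi-likelihood F-test, Benjamini-Hochberg over 14133 genes, 0.05). This fit was also run on simulated data, with changes larger than those of the members, so the simulation does not cover changes of their size. Values after ± are SD for CPM and ratios and SE (absolute log2 fold change over the square root of F) for log2 fold changes. Alternatives were size factors of DESeq2 1.42.0, no filter, DESeq2, limma 3.58.1-voom, a replicate block, only the groups compared, and each library left out. Always named were the members, Mettl3, Mettl14 and the other subunits of the cycle; each further list could name up to 3 genes with the smallest adjusted p per knockdown, of which those used are printed, and others were chosen after their values were seen, as said in the text and also for Ldhb, Aco1, Cox6a1, Slc25a10 and Slc25a13. 1 gene of the cycle is not reported here. The members and lists were chosen with earlier results of these data known. Totals were 19576632 to 22406527 counts, so each member rested on 1988 or more counts per library.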

Additional observations from a re-analysis of the deposited data

Results flagged for a closer look

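Idh2 in Mettl3 KD replicate 1, at 285 CPM, lay far from the other 3 Mettl3 KD libraries, at 272 to 274 CPM; this was 1 of 18 groups of 4 examined, and chance flags about 1 in 20. The effect of Mettl3 KD on Idh2 differed from that of Mettl14 KD by -0.11 on the log2 scale (adjusted p = 0.0226, edgeR's quasi-likelihood test), with all 4 Mettl3 KD libraries below all 4 Mettl14 KD libraries.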

How the results depend on the processing

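Of 459 recomputed log2 fold changes of the members, 428 kept their direction and side of the threshold, 19 lost and 8 gained a call, and 4 changed sign, all of these near 0 in Mettl3 KD against Mettl14 KD with 1 library left out: Idh3a ran from -0.013 to 0.0053 and Dlst from -0.0063 to 0.0138. The cause of the lost and gained calls was not tested. With 1 library left out, 5 to 6 members and 3705 to 4343 of all genes were called in Mettl3 KD, against 4420 genes with every library. In Mettl14 KD, 6 to 7 members and 2276 to 3091 of all genes were called, against 2956 genes with every library. Between the knockdowns, 0 to 2 members and 713 to 2125 of all genes were called, against 1145 genes with every library. The highest of these, 2125, was without scramble replicate 2. Fitting only the knockdown groups called 2187 genes and 2 members between them, Idh2 and Mdh1. Same-numbered libraries did not deviate together, with r of deviations from group means of -0.181 to 0.211 over 10 pairs. No library was closest to one of its own number, so the numbers were not taken to pair samples. Libraries of different number ran from -0.273 to 0.366 over 30 pairs, highest for scramble replicate 1 and Mettl14 KD replicate 2. Variation shared across groups in other ways than by number was not modelled. With the replicate number as a block, 5 members were called in Mettl3 KD, 6 in Mettl14 KD and 0 between the knockdowns. The share of all genes called in that fit is not given, so these counts have nothing to be set beside. Depth was ample for the members, at 1988 counts or more; the small number of libraries limits differences of a few per cent.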
